A study of Homo sapiens with 12 samples.

Results

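The 10 genes described here encode the erythropoietin receptor, its kinase, the STAT5 transcription factors and their best known target genes: EPOR, JAK2, STAT5A, STAT5B, SOCS1, SOCS2, SOCS3, CISH, PIM1 and BCL2L1. They were chosen by symbol from a table of 28278 genes, all 10 were in it, and all 10 passed the filter on low counts. RNA was sequenced from K562 cells, a human erythroleukaemia line that carries the BCR-ABL1 fusion kinase, in 4 groups of 3 libraries. WT cells, which have HRG1, and HRG1-KO cells, in which this heme transporter encoded by SLC48A1 was knocked out, were each either left untreated or given sodium butyrate, a histone deacetylase inhibitor that pushes K562 cells towards the erythroid lineage. The dose was 0.75 mM at 24 h after plating and again 48 h later, and RNA was taken 6 h after the later dose. Day 8 is recorded for all 12 libraries, and how that day relates to these hours is not stated here. All groups grew in RPMI with serum, antibiotics with glutamine and non-essential amino acids, and erythropoietin is not among the additions that the labels list. The labels do not say how many KO clones were used, how the knockout was made or whether replicates were separate cultures. A difference between genotypes therefore cannot be told apart from a difference between clones, and p-values measure the spread between these libraries, which may be technical.

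Erythropoietin holds together a pair of EPOR chains, and JAK2 molecules bound to them phosphorylate each other and the receptor tails. STAT5A and STAT5B dock there, are phosphorylated, and switch on genes such as CISH, SOCS1, SOCS2, SOCS3, PIM1 and BCL2L1. Proteins of the CISH and SOCS family bind the receptor or the kinase and dampen the signal, whereas PIM1 and BCL2L1 favour survival of red cell precursors. In K562 cells BCR-ABL1 can activate STAT5 without the receptor. The assay measured RNA, not protein or phosphorylation.

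STAT5 binds a palindrome written TTCNNNGAA, so 1 search covers both strands. RefSeq promoter windows on GRCh38.p14, from 250 bases before to 50 bases after a transcription start, were at hand for 9 of the 10 genes, as 16 windows. SOCS2 is named only. The CISH window held 4 copies of the palindrome, and it was the only one of the 16 with any. Of 35116 promoter windows of that length, 7.66% held at least 1 copy, 0.456% at least 2 and 0.0199% at least 4. A match describes letters and is not a measured binding site. The stretch below, at chr3:50611864-50612024 on the minus strand, is shown because it holds all 4 copies, in capitals. They are TTCCTGGAA, TTCTTGGAA, TTCTAGGAA and TTCCGGGAA, and begin 241, 230, 129 and 112 bases upstream of the start.
CISH: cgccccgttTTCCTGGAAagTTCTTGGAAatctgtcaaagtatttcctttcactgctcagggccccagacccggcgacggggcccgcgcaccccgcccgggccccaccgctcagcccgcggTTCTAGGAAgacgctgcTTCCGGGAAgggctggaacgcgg
GATA factors, the master regulators of red cell genes, bind AGATAA among other forms, and the EPOR window held that word once, on the opposite strand, as TTATCT, 78 bases upstream of the start. Of all windows, 10.3% held AGATAA on either strand. The EPOR stretch lies at chr19:11384357-11384422 on the minus strand, and capitals mark the match.
EPOR: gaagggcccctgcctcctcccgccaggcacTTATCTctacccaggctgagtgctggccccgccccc

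In the GENCODE v29 annotation of GRCh38, STAT5A (chr17:42287547-42311943, plus strand) and STAT5B (chr17:42199168-42276707, minus strand) are neighbours, 10839 bases apart. Of the 75-base words in the longest coding transcript of STAT5A, 9.96% also occur in STAT5B, while the other 8 genes share none with any other gene, so counts of the STAT5 pair may include reads of each other. EPOR lies at chr19:11377205-11384342 (minus), JAK2 at chr9:4984390-5128183 (plus), CISH at chr3:50606490-50611831 (minus) and SOCS1 at chr16:11254405-11256200 (minus). SOCS2 lies at chr12:93569814-93583487 (plus), SOCS3 at chr17:78356778-78360077 (minus), PIM1 at chr6:37170203-37175426 (plus) and BCL2L1 at chr20:31664452-31723989 (minus). Exons of CISH overlap MAPKAPK3 over 218 bases on the other strand, those of SOCS2 overlap SOCS2-AS1 over 277 bases, and those of BCL2L1 overlap the antisense gene ABALON over 1424 bases. The use of strand is not given in the sources used here, so reads of these pairs may be mixed. Counts were 701 to 3339 per library for MAPKAPK3, 17 to 167 for SOCS2-AS1 and 26 to 343 for ABALON.

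Libraries held 19963594 to 30348538 counts, and the 10 genes ranged from 156 counts in 1 library (SOCS1) to 24382 (PIM1). Values are given as TMM-scaled CPM (a count divided by library size) with mean ± SD over the 3 libraries of a group. SLC48A1, the targeted gene, stood at 5.94 ± 2.74 CPM in untreated KO against 73.7 ± 8.42 in untreated WT. The share of ribosomal RNA was 2.62% to 6.42% in the 4 libraries numbered 1, 1.25% to 3.19% in those numbered 2, which overlapped them, and 0.724% to 1.00% in those numbered 3. Butyrate-treated WT replicate 1 lay among the untreated libraries on the second principal component (40.9, where untreated libraries spanned 15.3 to 75.6 and the replicates 2 and 3 treated with butyrate -84.8 to -74.3). Treated KO replicate 1 lay between, at 4.21. Summed erythroid markers, 10 genes that include EPOR, were all detected, at 8002 to 17510 CPM in untreated WT, 26327 to 56643 in treated WT, 3491 to 6172 in untreated KO and 4493 to 6433 in treated KO. Of 6 megakaryocytic markers 5 were detected and PF4 was at 0 in every library. Their sum was 26.7 to 50.2 CPM, 96.5 to 209 CPM, 5.30 to 19.4 CPM and 51.7 to 65.6 CPM in the same order. Sums over 6 myeloid markers were 13.4 to 18.9 CPM in untreated and 20.8 to 32.5 CPM in treated WT. In KO they were 21.6 to 86.7 CPM untreated and 63.5 to 134 CPM treated. Sums of T cell and of B cell markers were each at most 16.0 CPM in any library. Those of 6 stromal or epithelial markers were 200 to 291 CPM in untreated and 338 to 558 CPM in treated libraries. These sums move with genotype or butyrate, and their part in the results below was not tested. In bulk RNA, fewer cells of a type and less RNA per cell cannot be told apart.

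**Figure D1:**
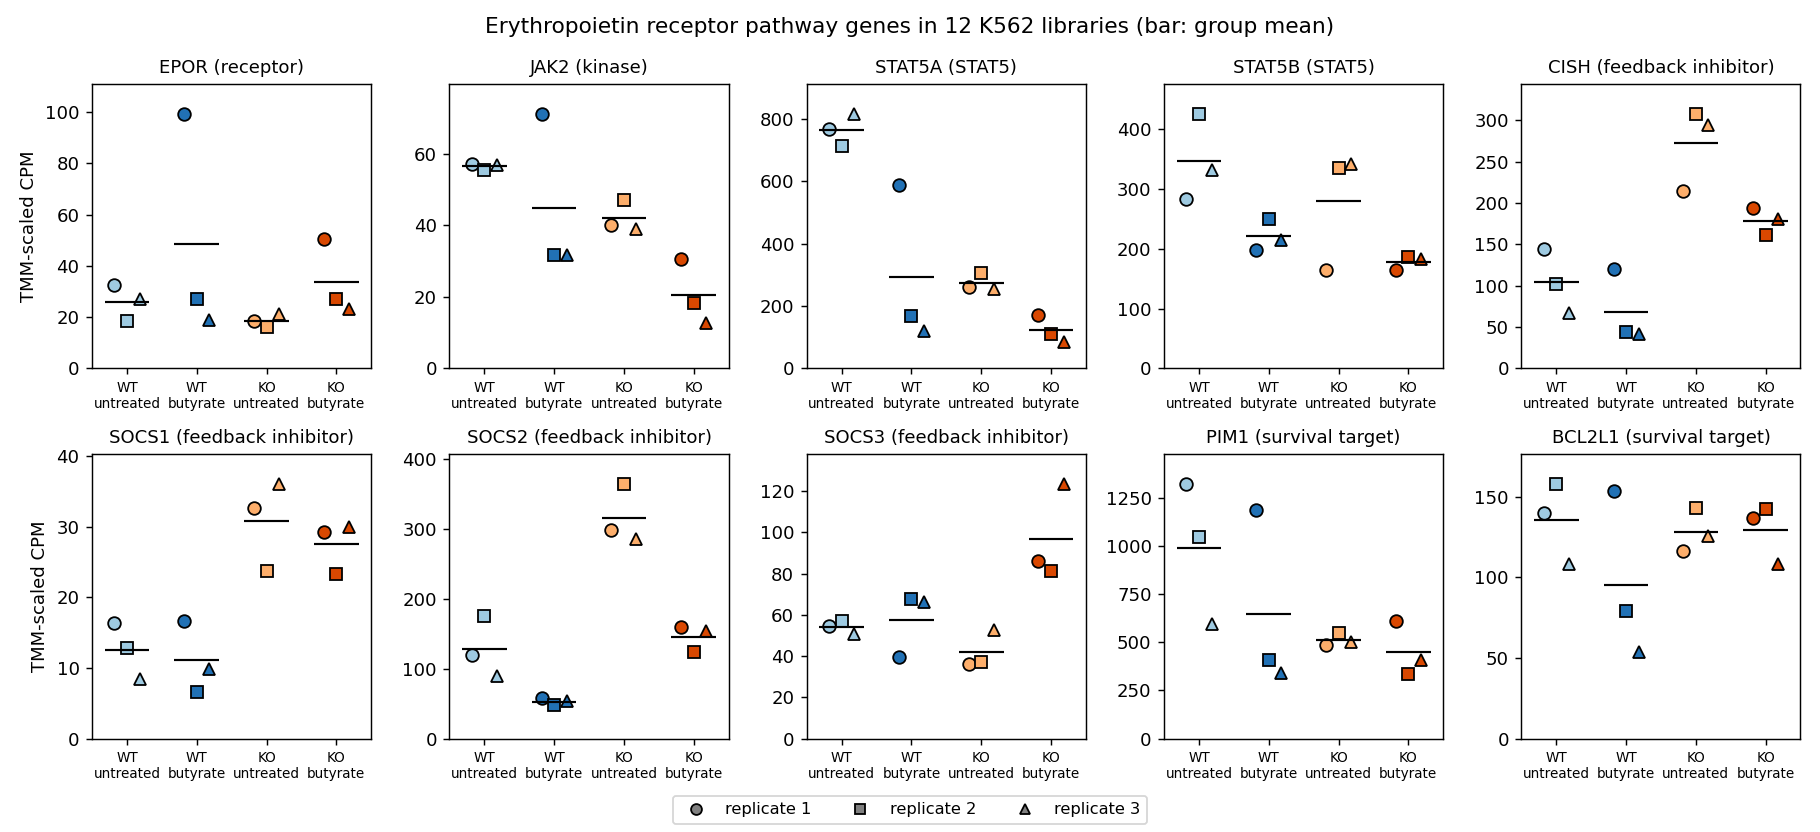
TMM-scaled CPM of the 10 genes in each of the 12 libraries, by group (x axis), with symbols for the replicate number and a bar at the group mean. CISH, SOCS1 and SOCS2 sit higher in KO than in WT with no overlap at either treatment, and STAT5A in untreated WT (712 to 816 CPM) lies above every other group.

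Ordered by level per kilobase of exon in untreated WT, PIM1 came first at 332 ± 123 CPM per kb, followed by STAT5A at 133 ± 9.01, STAT5B at 53.8 ± 11.2 and BCL2L1 at 40.8 ± 7.54. CISH (20.5 ± 7.59 CPM per kb), SOCS3 (19.8 ± 1.16) and SOCS2 (18.9 ± 6.52) formed a middle group whose ranges overlapped. The upstream genes were low: JAK2 stood at 9.16 ± 0.134 CPM per kb and EPOR at 8.46 ± 2.30, next to SOCS1 at 6.97 ± 2.24. Ranges of neighbours did not overlap between PIM1 and STAT5A, STAT5A and STAT5B, BCL2L1 and CISH, and SOCS2 and JAK2, and all other neighbours overlapped. In untreated KO the order differed in its middle. PIM1 (172 ± 11.6 CPM per kb) was still first, but CISH followed at 53.3 ± 9.83, with STAT5A at 47.6 ± 4.92, SOCS2 at 46.6 ± 6.17, STAT5B at 43.5 ± 15.5 and BCL2L1 at 38.7 ± 4.14 in overlapping ranges. EPOR (6.04 ± 0.821 CPM per kb) and JAK2 (6.81 ± 0.710) were the lowest there. PIM1 also led both treated groups without overlap with the next gene, at 216 ± 158 CPM per kb in WT and 152 ± 47.3 in KO. All of these orders and separations use merged exons, which can be much longer than a single transcript. Those of CISH span 5112 bases and those of SOCS2 6776, against 2167 and 3733 in the longest coding transcript. For SOCS3 both lengths are 2734 bases. Levels per transcript length were not computed, and ranks and overlaps between genes may differ there.

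The genotypes differed at 4 of the 10 genes in untreated cells: CISH, SOCS1 and SOCS2 were higher in KO and STAT5A was lower. Of all 15805 genes tested, 22.6% passed the same threshold (a p below 0.05 in edgeR's quasi-likelihood test after Benjamini-Hochberg adjustment), 11.7% as higher and 10.9% as lower. In butyrate-treated cells 4 members also passed, against 19.0% of all genes (10.1% as higher and 8.89% as lower): CISH, SOCS1 and SOCS2 were again higher in KO, and JAK2 was lower. Being called higher in KO at both treatments, as these 3 feedback inhibitors were, held for 8.05% of all tested genes. The libraries behind these comparisons are distinct, although each compares the same KO cells with the same WT cells. Fewer members passed for butyrate, an order that turned without the libraries numbered 1 (7 in WT and 6 in KO, against 4 and 5 between genotypes). Of all genes, 11.4%, 13.1%, 26.2% and 24.7% then passed in the same order. In WT only SOCS2 passed, as lower, against 2.35% of all genes (1.80% as higher and 0.550% as lower). In KO SOCS2 passed as lower and SOCS3 as higher, against 3.40% of all genes (2.80% as higher and 0.595% as lower). With the replicate number as a block, 2, 4, 4 and 6 members passed for butyrate in WT, butyrate in KO, KO against WT untreated and KO against WT treated, against 8.61%, 11.7%, 33.0% and 29.2% of all genes. The median log2 fold change of the 10 genes was -0.56 for butyrate in WT, -0.40 for butyrate in KO, -0.34 for KO against WT untreated and 0.06 for KO against WT treated, while the medians over all genes lay between -0.0022 and 0.025. The butyrate and the genotype comparisons share libraries and are given side by side only.

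**Figure D2:**
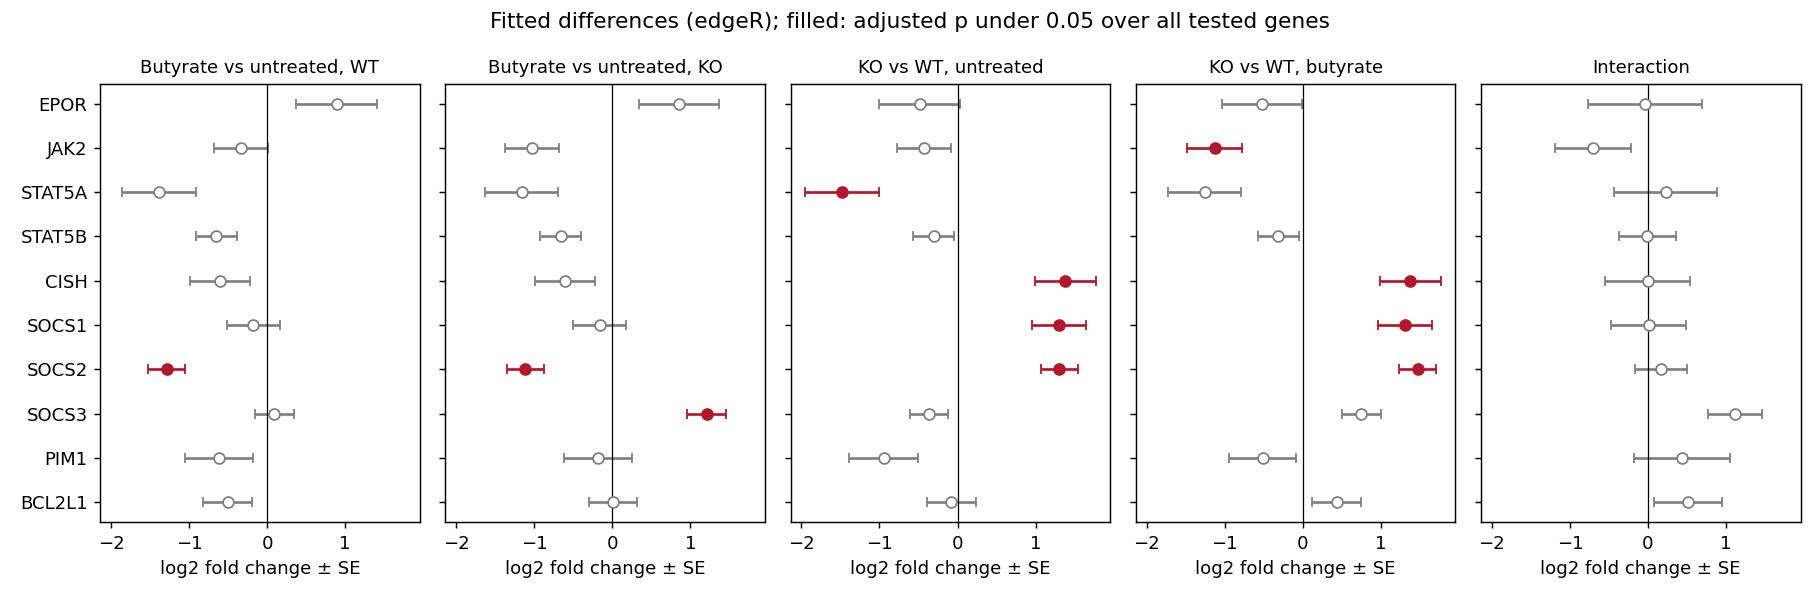
Fitted log2 fold changes with standard errors (x axis) of the 10 genes (rows) in the 4 comparisons and the interaction, with filled points for an adjusted p under 0.05 over all tested genes. The filled points at CISH, SOCS1 and SOCS2 repeat in both genotype panels, at 1.30 to 1.47, and the interaction panel has none.

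EPOR, the receptor, passed the test in no comparison. Its libraries held 32.6, 18.5 and 27.0 CPM in untreated WT and 99.2, 27.2 and 18.9 CPM in treated WT. In KO they held 18.6, 16.1 and 21.1 CPM untreated and 50.6, 27.0 and 23.3 CPM treated. Treated and untreated libraries overlapped in WT but not in KO, and replicate 1 was the highest treated library of both genotypes. The log2 fold change for butyrate was 0.89 ± 0.52 (SE; adjusted p = 0.401) in WT and 0.85 ± 0.52 (adjusted p = 0.391) in KO. The WT value rests on replicate 1: without that treated library it was -0.19. The KO value also leaned on its treated replicate 1, and was 0.43 without it (adjusted p = 0.670). Between genotypes the values were -0.49 ± 0.52 untreated (adjusted p = 0.556) and -0.53 ± 0.51 treated (adjusted p = 0.539). The latter turned to 0.53 without treated WT replicate 1.

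JAK2, the kinase bound to the receptor, was 2.19-fold lower in treated KO than in treated WT. Its libraries stood at 57.1, 55.6 and 57.0 CPM in untreated WT, 71.1, 31.8 and 31.8 CPM in treated WT, 40.0, 47.0 and 39.0 CPM in untreated KO and 30.7, 18.2 and 12.8 CPM in treated KO. KO lay below WT without overlap at both treatments, and treated KO lay below untreated KO. The genotype log2 fold change was -1.13 ± 0.35 in treated cells (adjusted p = 0.0391) and -0.43 ± 0.34 in untreated cells (adjusted p = 0.419). The call in treated cells was weak: it held in 4 of 12 fits that left out 1 library, and without treated WT replicate 1 the value was -0.64 (adjusted p = 0.136). It was also lost without replicate 2 or 3 of treated KO (adjusted p = 0.121 for both), and reached adjusted p of 0.0517 to 0.0545 without any 1 of the 3 untreated WT libraries or replicate 1 or 2 of untreated KO. For butyrate, the value was -0.33 ± 0.34 in WT (adjusted p = 0.671) and -1.03 ± 0.35 in KO (adjusted p = 0.124). With the replicate number as a block, the KO value was -1.13 (adjusted p = 0.0218), and without treated KO replicate 1 it was -1.44 (adjusted p = 0.0349).

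STAT5A was the more abundant of the STAT5 pair in untreated WT and the one that differed between genotypes. It stood at 766, 712 and 816 CPM in untreated WT and at 260, 307 and 256 CPM in untreated KO, so that KO held 35.8% of the WT mean with no overlap. That made a log2 fold change of -1.48 ± 0.47 (adjusted p = 0.0391). The size was steady, from -1.60 to -1.44 when any 1 of the 6 libraries was left out, but the adjusted p then lay above 0.05 in each of these 6 fits (at most 0.110, without untreated KO replicate 1) and at 0.0506 without treated KO replicate 2. Treated WT libraries held 588, 169 and 121 CPM and treated KO libraries 171, 111 and 85.6 CPM. Replicate 1 of treated WT lay near the untreated libraries, and the other treated WT libraries reached into the KO range. The genotype value in treated cells was -1.26 ± 0.47 (adjusted p = 0.0827), which with the replicate block was -1.10 (adjusted p = 0.0442) and without treated WT replicate 1 was -0.25. It passed without treated WT replicate 3 (-1.64, adjusted p = 0.0220) and with DESeq2 (-1.26, adjusted p = 0.0344).

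Butyrate-treated libraries lay below untreated ones at STAT5A in both genotypes, without overlap. The log2 fold change was -1.39 ± 0.47 in WT (adjusted p = 0.146) and -1.16 ± 0.47 in KO (adjusted p = 0.189), so neither passed. Both passed with the replicate block, at -1.65 (adjusted p = 0.0232) and -1.27 (adjusted p = 0.0469). With DESeq2 the WT value passed as well (-1.37, adjusted p = 0.0482). Between libraries of the same number the WT differences in log2 CPM were -0.38, -2.07 and -2.75, and those in KO were -0.60, -1.47 and -1.58. Each of the 6 was negative, and number 1 gave the smallest difference in both genotypes.

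STAT5B, the close homologue, passed in no comparison. Its libraries held 283, 425 and 332 CPM in untreated WT, 198, 250 and 215 CPM in treated WT, 165, 335 and 341 CPM in untreated KO and 164, 186 and 183 CPM in treated KO. Treated WT lay below untreated WT without overlap (log2 fold change -0.65 ± 0.26, adjusted p = 0.212), and in KO replicate 1 of the untreated group fell at the treated level (-0.66 ± 0.26, adjusted p = 0.182). The genotype values were -0.31 ± 0.26 untreated (adjusted p = 0.449) and -0.31 ± 0.26 treated (adjusted p = 0.458). Per kilobase of exon, the ratio of STAT5A to STAT5B was 3.04, 1.87 and 2.75 in untreated WT and 1.76, 1.03 and 0.840 in untreated KO. It was 3.33, 0.758 and 0.630 in treated WT and 1.17, 0.668 and 0.524 in treated KO. STAT5A therefore exceeded STAT5B per length in all untreated WT libraries and fell below it in replicates 2 and 3 of both treated groups. Summed over the pair, 1111 ± 54.1 CPM in untreated WT compared with 555 ± 114 in untreated KO, 513 ± 239 in treated WT and 300.1 ± 33.3 in treated KO.

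CISH, the SH2 protein that competes with STAT5 for the receptor tail, was 2.60-fold higher in KO at both treatments. Untreated libraries held 145, 102 and 67.0 CPM in WT and 215, 308 and 295 CPM in KO. Treated libraries held 121, 44.1 and 41.5 CPM in WT and 194, 161 and 180 CPM in KO. Every KO library lay above every WT library of the same treatment. The log2 fold changes were 1.38 ± 0.39 untreated (adjusted p = 0.0222) and 1.38 ± 0.39 treated (adjusted p = 0.0259). Both calls were lost in some fits that left out 1 library, untreated without replicate 2 or 3 of either group (at most 0.0963, and 1.13 without untreated WT replicate 3) and treated without any library but WT replicate 1 (at most 0.102, and 1.10 without treated WT replicate 3). Without treated WT replicate 1 the treated value was 2.05 (adjusted p = 0.00065), and without all 4 libraries numbered 1 it was 1.97. Butyrate gave -0.61 ± 0.38 in both genotypes (adjusted p = 0.446 in WT and 0.410 in KO), with no overlap in KO.

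SOCS1, which binds and blocks the JAK kinase domain, was 2.46-fold higher in untreated KO. It stood at 16.4, 12.8 and 8.37 CPM in untreated WT and 32.6, 23.7 and 36.0 CPM in untreated KO. With butyrate the libraries held 16.7, 6.66 and 9.92 CPM in WT and 29.3, 23.4 and 30.0 CPM in KO. No KO library reached down into the WT range. The log2 fold changes were 1.30 ± 0.35 untreated (adjusted p = 0.0167) and 1.31 ± 0.35 treated (adjusted p = 0.0188). Leaving out untreated WT replicate 2 or 3 or untreated KO replicate 3 ended the former call (at most 0.0772), and leaving out treated WT replicate 2 or 3 or treated KO replicate 3 ended the latter (at most 0.0731). Butyrate values were small, -0.17 ± 0.34 in WT (adjusted p = 0.845) and -0.16 ± 0.34 in KO (adjusted p = 0.842).

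SOCS2, a STAT5 target known for restraining growth hormone signalling, was the member with the firmest calls and the only one to pass in all 4 comparisons. Libraries held 119, 176 and 88.7 CPM in untreated WT and 298, 364 and 286 CPM in untreated KO. After butyrate they held 57.2, 47.2 and 53.1 CPM in WT and 159, 124 and 154 CPM in KO. Both contrasts separated the libraries without overlap. KO exceeded WT 2.47-fold untreated (log2 fold change 1.30 ± 0.24, adjusted p = 0.00176) and 2.77-fold treated (1.47 ± 0.24, adjusted p = 0.00107), and both calls held in each of 12 fits that left out 1 library. Butyrate lowered SOCS2 in WT (-1.28 ± 0.24, adjusted p = 0.0190) and in KO (-1.12 ± 0.24, adjusted p = 0.0278). The same-number differences in log2 CPM were -1.06, -1.89 and -0.74 in WT and -0.91, -1.55 and -0.89 in KO. The butyrate calls were lost without replicate 1 or 2 of untreated WT or replicate 2 or 3 of treated WT (at most 0.0965), and without replicate 1 or 2 of untreated KO or replicate 2 or 3 of treated KO (at most 0.133).

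SOCS3, which blocks JAK2 by binding both the kinase and the receptor, was 2.31-fold higher after butyrate in KO. Untreated and treated KO libraries held 35.9, 37.2 and 52.8 CPM and 86.2, 81.5 and 123 CPM. The WT libraries held 54.7, 56.9 and 50.7 CPM untreated and 39.3, 67.6 and 66.2 CPM treated. Butyrate thus separated the KO libraries and left those of WT overlapping. The log2 fold change was 1.21 ± 0.25 in KO (adjusted p = 0.0262), with same-number differences of 1.26, 1.13 and 1.22, and 0.094 ± 0.25 in WT (adjusted p = 0.893). The KO call was lost without replicate 1 or 2 of untreated KO or replicate 2 or 3 of treated KO (at most 0.138). Between genotypes SOCS3 gave -0.37 ± 0.25 untreated (adjusted p = 0.329) and 0.75 ± 0.25 treated (adjusted p = 0.0531). The treated value was 0.76 with the replicate block (adjusted p = 0.0155) and 0.74 with DESeq2 (adjusted p = 0.0288).

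PIM1, a kinase gene induced by STAT5, passed in no comparison in the fit of all 12 libraries, although it was the most abundant member per kilobase. Untreated libraries held 1321, 1049 and 595 CPM in WT and 483, 550 and 503 CPM in KO, and treated libraries 1188, 405 and 340 CPM in WT and 608, 335 and 410 CPM in KO. Untreated KO lay below untreated WT without overlap, with a log2 fold change of -0.95 ± 0.44 (adjusted p = 0.144). This difference passed when only the groups compared were fitted (-0.96, adjusted p = 0.0265). The WT libraries themselves spread widely, with replicate 1 highest at both treatments. For butyrate the values were -0.62 ± 0.43 in WT (adjusted p = 0.505) and -0.18 ± 0.43 in KO (adjusted p = 0.864). BCL2L1, which encodes the survival protein BCL-XL, held 140, 158 and 108 CPM in untreated WT, 153, 79.0 and 53.6 CPM in treated WT, 116, 143 and 126 CPM in untreated KO and 136, 142 and 108 CPM in treated KO. All of its comparisons overlapped, with log2 fold changes from -0.50 ± 0.31 (butyrate in WT, adjusted p = 0.436) to 0.44 ± 0.31 (KO against WT treated, adjusted p = 0.382).

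**Figure D3:**
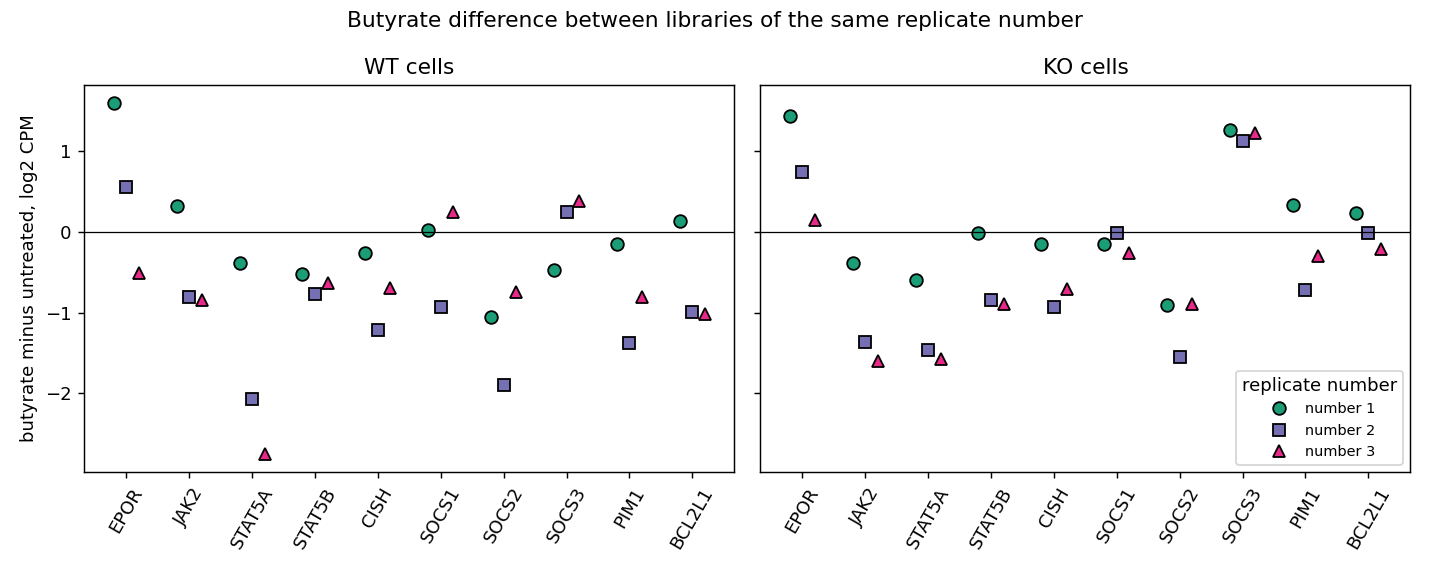
Difference in log2 CPM between the butyrate-treated and the untreated library of the same replicate number (y axis) for the 10 genes (x axis), in WT and in KO cells. Number 1 gave the least negative difference in WT for JAK2 (0.32), STAT5A (-0.38), STAT5B (-0.52), CISH (-0.26), PIM1 (-0.15) and BCL2L1 (0.13), and SOCS3 in KO lay at 1.13 to 1.26 in all 3 numbers.

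Counted without a model, 3 members (STAT5A, STAT5B and SOCS2) had treated WT libraries all below untreated ones, against 21.7% of all genes in either direction, 11.3% as higher and 10.4% as lower. In KO 4 members lay lower (JAK2, STAT5A, CISH and SOCS2) and 2 higher (EPOR and SOCS3) without overlap, against 24.4% of all genes (12.6% as higher and 11.8% as lower). Between untreated genotypes 3 members lay higher in KO (CISH, SOCS1 and SOCS2) and 3 lower (JAK2, STAT5A and PIM1), against 42.3% of all genes (22.2% as higher and 20.2% as lower). In treated cells 4 lay higher (the same 3 and SOCS3) and 2 lower (JAK2 and STAT5B), against 33.9% of all genes (17.9% as higher and 16.0% as lower). For 3 libraries against 3, an exact permutation test cannot give a p below 0.1, which each of these separations reached.

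The butyrate result in WT depended on treated replicate 1, whose share of ribosomal RNA was 6.42%. Without it, 7.63% of all genes passed in place of 2.35%, and 5 members passed as lower in place of 1: STAT5A at -2.41 (adjusted p = 0.00179), CISH at -1.30 (adjusted p = 0.0232), PIM1 at -1.42 (adjusted p = 0.0269), BCL2L1 at -1.04 (adjusted p = 0.0240) and SOCS2. Without the 4 libraries numbered 1, 7 members passed in WT, JAK2 and STAT5B being added, and 6 in KO, while 4 and 5 passed in the untreated and treated genotype comparisons. The shares of all genes were then 11.4%, 13.1%, 26.2% and 24.7%, each above the share with all libraries. Without treated WT replicate 1, when 6.38%, 26.5% and 21.4% of all genes passed for butyrate in KO and between untreated and treated genotypes, JAK2 (-1.03, adjusted p = 0.0397) and STAT5A (-1.16, adjusted p = 0.0180) also passed for butyrate in KO, PIM1 passed as lower in untreated KO (-0.98, adjusted p = 0.0251) and BCL2L1 as higher in treated KO (0.95, adjusted p = 0.0140). Why treated WT replicate 1 lay among the untreated libraries was not tested. Leaving the ribosomal RNA genes out of all libraries left the counts of members called at 1, 2, 4 and 4. That step kept every library, so it does not address why treated WT replicate 1 lay where it did.

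Whether butyrate acted differently in KO than in WT was tested as an interaction. None of the 10 genes passed with edgeR or with DESeq2, and 1 had an unadjusted p under 0.05. Of all tested genes 0% passed with edgeR, 658 had an unadjusted p under 0.05, and DESeq2 called 81. The member with the smallest p was SOCS3, whose interaction was 1.11 ± 0.35 on the log2 scale (adjusted p = 0.758). CISH had an interaction of -0.0028 ± 0.54 and SOCS2 one of 0.17 ± 0.33. The separate results for SOCS3 in KO and in WT are thus not shown to differ.

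Relatives and partners of the pathway were followed in 6 lists of 54 genes, of which 49 were tested. Of these 49, 9 differed between genotypes in untreated cells, a share of 18.4% against 22.6% of all genes, and 4 in treated cells, a share of 8.16% against 19.0%. Their median log2 fold change was -0.35 untreated, against 0.02 over all genes, and -0.11 treated. The former median was the same with CSF2RA, at 0 in untreated KO, set to a limit of 3 counts per library. For butyrate, 2 passed in WT, a share of 4.08% against 2.35% of all genes, and 5 in KO, a share of 10.2% against 3.40%. With the replicate block the counts were 17 and 10 between genotypes, untreated and treated, against 33.0% and 29.2% of all genes, and 4 and 9 for butyrate in WT and KO, against 8.61% and 11.7%. Among the genes called, TFR2 and INPP5D had the largest genotype differences. TFR2, a transferrin receptor that also binds EPOR, stood at 191 ± 9.34 CPM in untreated WT and 9.05 ± 6.53 CPM in untreated KO (log2 fold change -4.39 ± 0.43, adjusted p = 1.8e-05) and at 193 ± 48.3 against 29.7 ± 2.77 CPM after butyrate (-2.70 ± 0.39, adjusted p = 0.00048). INPP5D, which encodes the phosphatase SHIP1, was at 16.5 ± 4.92 CPM in untreated WT and 0.600 ± 0.618 CPM in untreated KO (-4.70 ± 0.68, adjusted p = 0.00034). Unlike TFR2, INPP5D did not pass between treated genotypes. Without untreated KO replicate 3 the untreated values were -5.19 for TFR2 and -5.93 for INPP5D.

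Among receptors that signal through JAK2 or STAT5, KIT, the stem cell factor receptor, was higher in KO. Untreated KO held 26.3 ± 13.8 CPM against 6.70 ± 2.75 in untreated WT (log2 fold change 1.97 ± 0.42, adjusted p = 0.00494). Treated KO held 80.9 ± 18.2 CPM against 17.6 ± 4.96 in treated WT (2.20 ± 0.42, adjusted p = 0.00304). LEPR, the leptin receptor, was higher in KO at both treatments (0.96 ± 0.19 and 0.99 ± 0.20, adjusted p = 0.00332 and 0.0037). It was also lower after butyrate in both genotypes, from 64.5 ± 3.06 to 18.2 ± 4.04 CPM in WT (-1.83 ± 0.20, adjusted p = 0.00243) and from 126 ± 3.82 to 36.0 ± 6.16 CPM in KO (-1.80 ± 0.20, adjusted p = 0.00211). LEPR thus passed in all 4 comparisons, as SOCS2 did, and each of its calls held in all 12 fits that left out 1 library. When only the groups compared were fitted, LEPR lost the call between treated genotypes (adjusted p = 0.0553). SOCS2 lost the one for butyrate in WT in that setting (adjusted p = 0.0902). Of the 6 STAT and JAK relatives tested, STAT2 was lower in untreated KO (-0.87 ± 0.24, adjusted p = 0.0195), while STAT6 was lower after butyrate in WT (-0.85 ± 0.18, adjusted p = 0.0327). Of the 4 SOCS relatives, SOCS4 was higher (1.08 ± 0.23, adjusted p = 0.0054) and SOCS6 lower (-1.06 ± 0.32, adjusted p = 0.0325) in untreated KO.

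Of the adaptors, phosphatases and regulators, SH2B3, the adaptor LNK that restrains JAK2, was lower in untreated KO (log2 fold change -1.09 ± 0.33, adjusted p = 0.0327). The kinase LYN was also lower there (-0.85 ± 0.25, adjusted p = 0.0253). In KO, butyrate raised INPP5D (3.69 ± 0.65, adjusted p = 0.0132), the phosphatase PTPN6 (2.08 ± 0.45, adjusted p = 0.0281), TFR2 (1.70 ± 0.38, adjusted p = 0.0332) and the EPO-responsive gene ID1 (2.39 ± 0.41, adjusted p = 0.0112). Without untreated KO replicate 3 the values were 4.90 for INPP5D and 2.48 for TFR2. PIM2, the relative of PIM1, was lower in treated KO (-1.18 ± 0.38, adjusted p = 0.0472), a call that held in 2 of 12 fits without 1 library and was at -0.51 without treated WT replicate 1 (adjusted p = 0.196). Leaving out single libraries of their own groups ended none of the genotype calls of TFR2, INPP5D, KIT, LEPR and SOCS4. It ended those of LYN (all 6 libraries but untreated WT replicate 3), of SH2B3 and SOCS6 (all but untreated KO replicate 2) and of STAT2 (all but untreated WT replicates 1 and 2). The butyrate calls in KO were lost without replicate 2 of untreated or of treated KO for all 4 genes (adjusted p at most 0.167). They were also lost without untreated KO replicate 1 for ID1, PTPN6 and TFR2, without untreated KO replicate 3 for PTPN6 and without treated KO replicate 3 for PTPN6 and TFR2. The STAT6 call held without treated WT replicate 1 alone of its own 6 libraries (at most 0.126). With only the groups compared, the calls of STAT6 (adjusted p = 0.0982), of PIM2 (0.130) and of TFR2 for butyrate in KO (0.0808) were lost as well. Without the libraries numbered 1, those of SH2B3 (0.0696), SOCS6 (0.0531) and PIM2 (0.127) were lost. BCR and ABL1, the partners of the fusion kinase, passed in no comparison.

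**Figure D4:**
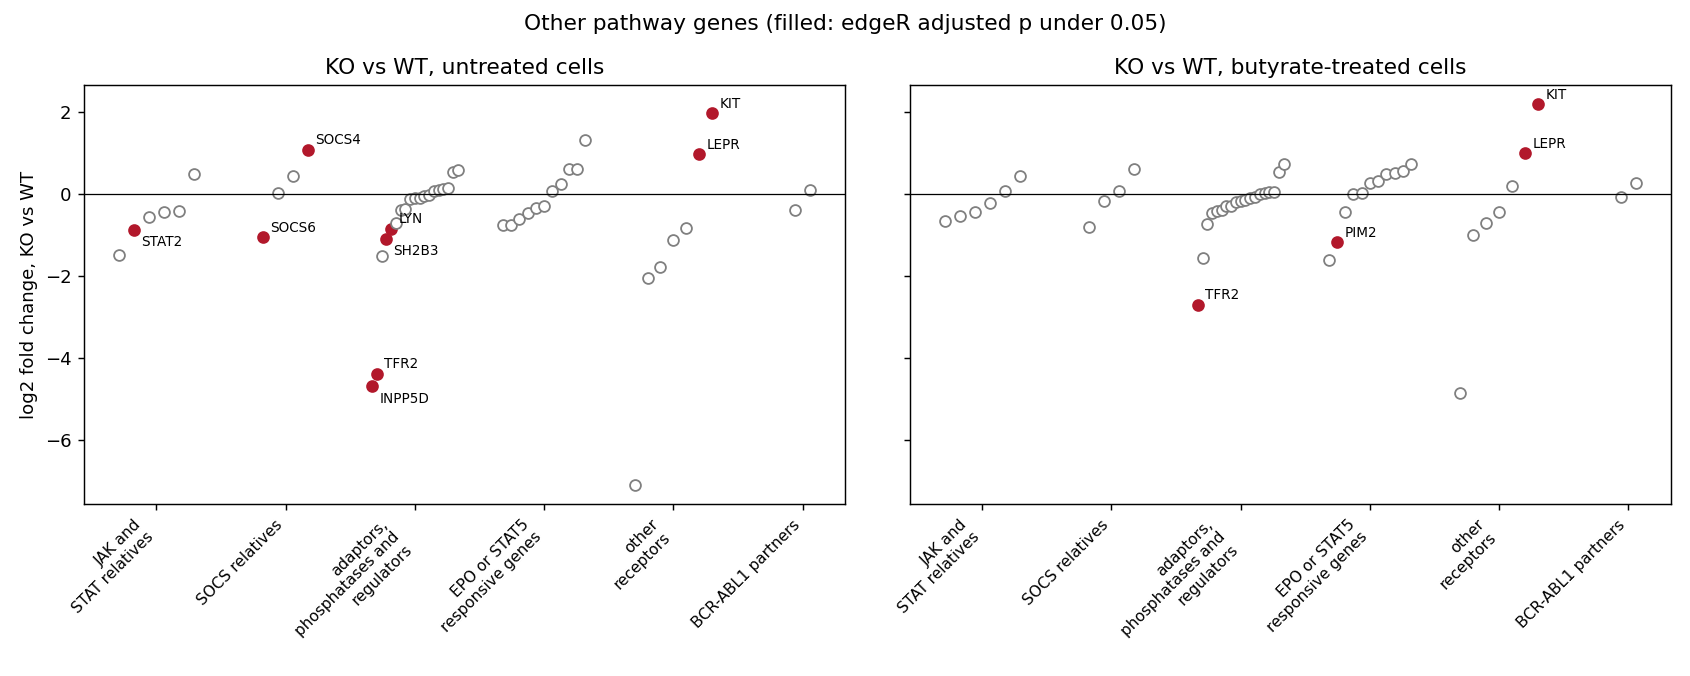
Log2 fold change of KO against WT (y axis) for the 49 tested genes of the 6 other lists (x axis), in untreated and in butyrate-treated cells, with filled and named points for an adjusted p under 0.05. TFR2 and INPP5D lie lowest among the filled points, at -4.39 and -4.70 in untreated cells, and the lowest open point is CSF2RA, at 0 counts in every untreated KO library, so that its fitted value is no bound.

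Likeness of expression was measured as Pearson's r of log2 CPM over the 12 libraries, which share genotype and treatment, and it is given as a description. The genes most like SOCS2 were VPS36 (0.984), PLSCR1 (0.980) and LINC01138 (0.973). CISH was most like GNPNAT1 (0.971), LRPAP1 (0.960) and EFCAB2 (0.958), and SOCS1 most like RPN2 (0.961), PPT1 (0.960) and ORMDL1 (0.953). For STAT5A they were LTBR (0.978), GART (0.959) and AIFM2 (0.958), and for JAK2 EMSLR (0.979), METTL4 (0.971) and TLK1 (0.966). EPOR was most like ATP6V0E1 (0.957), LAMTOR1 (0.921) and SF3B4 (0.918), and SOCS3, whose best values were lower, like PRRT1 (0.909), CORO7 (0.900) and TEAD3 (0.895). None of these lists held another member.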

How the data were processed

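Counts per gene symbol for 12 libraries came as 1 table of whole numbers deposited by the authors. The submitters' processing notes name FastQC 0.12.1, STAR 2.7.11b and the build hg38, with no role stated. The counting tool, annotation, use of strand and filters are not given in the sources used here. Groups and replicate numbers came from the sample titles. edgeR 4.0.16 (R 4.3.3) was used with the filter filterByExpr (minimum count 10), which left 15805 genes, with TMM scaling and 1 mean per group over all 12 libraries (biological coefficient of variation 0.384). For 5 contrasts, p-values of the quasi-likelihood F-test received a Benjamini-Hochberg adjustment across the 15805 genes and a threshold of 0.05, and SE is the log2 fold change divided by the root of F. Log2 CPM used a prior count of 2. Levels per kilobase used merged exons of GENCODE v29.

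Named genes were the 10 members, SLC48A1, listed pathway genes past the threshold, and the 3 genes most like each member by correlation for EPOR and the members called. CSF2RA and the genes overlapping members were named after their values were seen. 1 gene of the pathway lists is not reported here. The members and lists were chosen with earlier results of these data known, and the alternatives for the pathway lists were added after seeing the data. Libraries with the same number deviated together from their group means (correlation over genes 0.147 to 0.595 in every pair of the 4 comparisons). Libraries with different numbers gave -0.512 to 0.343 between treated genotypes, which overlapped the values for the same number there. The main fit used no pairing, and the replicate number entered a test only as the block, an alternative. Alternatives were RLE size factors, library size alone, DESeq2 1.42.0, other filters, the replicate block, only the groups compared, and fits without single libraries, without the 4 libraries numbered 1 and without ribosomal RNA genes. The edgeR step was tested on simulated data.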

Additional observations from a re-analysis of the deposited data

How the results depend on the processing

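Of 1458 values of members and called pathway genes under the alternatives, 1261 kept their direction and their side of the threshold, 30 passed in addition, 110 no longer passed and 57 turned their direction. None of the genes called turned, and the cause of each change was not tested unless stated. RLE scaling and library size alone left the members called at 1, 2, 4, 4 and 0 in the order butyrate in WT, butyrate in KO, KO against WT untreated, KO against WT treated and interaction. Library size alone moved the median of all genes by 0.12 for butyrate in KO and by 0.11 for the interaction, and called 1 pathway gene for butyrate in WT in place of 2.

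For butyrate in WT, 372 genes were called, against 1331 with DESeq2, 1361 with the replicate block, 63 with only the groups compared (fewer samples), 1884 without the libraries numbered 1, and 43 to 1243 without single libraries. Members called were 2, 2, 0, 7 and 0 to 5 in that order, and pathway genes 7 with DESeq2, 4 with the block, 1 with only the groups compared and 1 to 4 without single libraries. For butyrate in KO, 537 genes were called, against 1538 with DESeq2, 304 with at least 10 counts in every library (fewer genes tested), 1852 with the block, 2164 without the libraries numbered 1 and 48 to 1039 without single libraries. Members called were 4 with the block, 6 without the libraries numbered 1 and 0 to 4 without single libraries, and pathway genes 9, 8 and 1 to 8.

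Between untreated genotypes 3574 genes were called, against 2334 when each library had to hold at least 10 counts. Without single libraries 2485 to 4318 genes, 1 to 5 members and 5 to 15 pathway genes were called, and pathway genes were 15 with DESeq2, 17 with the block and 14 with only the groups compared, in place of 9. Between treated genotypes 3009 genes were called, against 1947 with at least 10 counts in every library, 4612 with the block and 1802 with only the groups compared. Members called were 1 with only the groups compared, where JAK2 (adjusted p = 0.148), CISH (0.0801) and SOCS1 (0.0628) were lost, as SOCS2 was for butyrate in WT (0.0902). They were 1 to 4 without single libraries, where 2014 to 3477 genes were called. Pathway genes called were 4, against 10 with the block, 9 without the libraries numbered 1 and 3 to 7 without single libraries. The interaction called 0 genes, against 81 with DESeq2 (1 of them a pathway gene), 2 with no filter, 1 with at least 10 counts in every library, 3 with the block, 9 without the libraries numbered 1 and 0 to 2 without single libraries. The replicate block changed no call of a member beyond the 5 named in the report.

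All values that turned direction had not passed the test. BCL2L1 for butyrate in KO was -0.00078 with no filter, -0.019 with the block and -0.12 without the libraries numbered 1, and EPOR between treated genotypes was 0.10 without them. The interaction of STAT5B was 0.011 with RLE, 0.083 with library size alone, 0.011 with DESeq2, 0.0032 with at least 10 counts and 0.029 with the block. That of CISH was 0.018, 0.16, 0.017, 0.026 and 0.010 in the same order and 0.16 without the libraries numbered 1, and that of EPOR was 0.17 with library size alone, 0.065 with the block and 0.41 without those libraries. Without single libraries, butyrate in WT ranged from -0.60 to 0.084 for SOCS1, -0.19 to 1.27 for EPOR and -0.039 to 0.30 for SOCS3, and BCL2L1 from -0.068 to 0.13 for butyrate in KO and -0.23 to 0.050 between untreated genotypes. Between treated genotypes EPOR ranged from -0.94 to 0.53 and PIM1 from -0.84 to 0.27. Interactions ranged from -0.28 to 0.16 for STAT5B, -0.25 to 0.45 for SOCS1, -0.46 to 1.05 for EPOR, -0.31 to 0.70 for CISH, -0.13 to 0.37 for SOCS2 and -0.14 to 1.25 for STAT5A.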
